A study of Pimephales promelas with 32 samples.

Results

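Cytochrome c was followed through a single gene model, FMg015475, in larvae of Pimephales promelas, the fathead minnow, a freshwater fish used in toxicity testing. Each library came from the whole body of 1 larva. The model was found by its protein accession, Q6IQM2, which is zebrafish cytochrome c, and it was the 1 row of 26150 in the deposited count table with that accession. It was singled out on its values in these same larvae, because it had the smallest p of the 7910 models with a mean count of at least 50 and a positive log2 fold change with copper sulfate. Its differences between groups are therefore given as a description, with no test.

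Messenger RNA was sequenced from 10 larvae exposed to 3.2 µg/L of bifenthrin, a pyrethroid insecticide, 11 larvae exposed to copper sulfate at 40 µg/L and 11 control larvae with neither chemical. Exposure lasted 48 h at 25 °C, and the labels give 0.002% DMSO as vehicle in every group, controls included. The larvae of all groups were 96 h post hatch per the treatment protocol. The age labels give 48 h post hatch and 4 days post fertilization, and the difference was not resolved. Larvae were kept 10 to a beaker in 5 beakers per treatment. The labels do not tie a larva to a beaker, and larvae that shared one would make p-values between groups too small.

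Cytochrome c is a small haem protein of the space between the mitochondrial membranes. It carries electrons from ubiquinol-cytochrome c reductase to cytochrome c oxidase, the copper-containing enzyme that passes them to oxygen. When it leaks into the cytosol it helps to assemble the apoptosome, the complex that activates caspases and leads to cell death. Muscle, heart and brain, which depend on respiration, are rich in it. Pyrethroids hold the sodium channels of nerve and muscle cells open, and dissolved copper at high levels disturbs ion uptake at the gill and promotes oxidative reactions.

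Total counts ranged from 10655113 to 17993699 per larva. They averaged 13604284 ± 1560446 in bifenthrin larvae (SD, n = 10), 14132989 ± 1613666 under copper sulfate and 14085246 ± 2600502 in controls (SD, n = 11 each). The factors of the trimmed mean of M-values (TMM), which correct the totals for composition, averaged 0.985 ± 0.019 with bifenthrin, 0.984 ± 0.043 with copper sulfate and 1.03 ± 0.048 in controls (SD, n = 10, 11 and 11). The table gives protein accessions without gene names and no marker accessions were set for a whole larva, so the labelled tissue was not checked against markers.

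The cytochrome c model was higher in every treated larva than in any control once depth was taken into account, and its level was highest on average with copper sulfate. Raw counts lay between 2694 and 4087 in bifenthrin larvae, with a median of 3567. In copper sulfate larvae they lay between 3072 and 5670, with a median of 4335. In controls they lay between 1481 and 3079, with a median of 2089. On this raw scale the highest control, replicate 4 with 3079 counts, overlapped the low end of both treated groups. Control replicate 5, with 2990 counts, overlapped the low end of the bifenthrin group. Both controls were also among the deepest libraries, with 17703339 counts in total for replicate 4 and 17993699 for replicate 5.

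**Figure D1:**
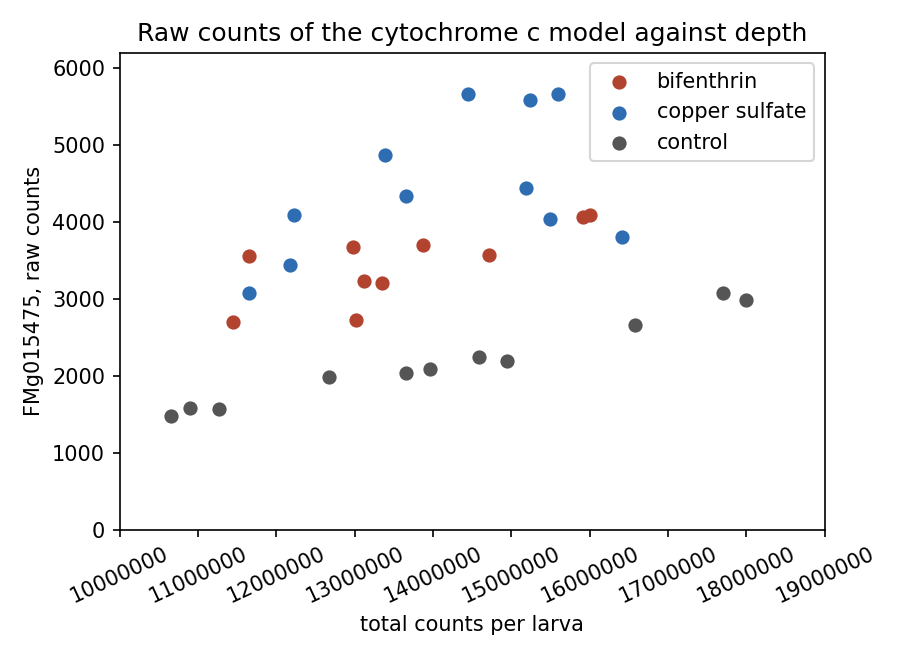
Raw counts of FMg015475 (y axis) against the total counts of each larva (x axis), 1 point per larva, for 10 bifenthrin, 11 copper sulfate and 11 control larvae. The control points form a band below all treated points of similar depth, from 1481 counts in the shallowest control to 3079 in replicate 4.

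Levels are given as CPM, the count scaled to a library of fixed size, here with TMM factors. The model had 212, 243, 245, 250, 250, 257, 267, 273, 278 and 307 CPM in the 10 bifenthrin larvae, in rising order. The 11 copper sulfate larvae had 230, 259, 266, 289, 304, 305, 335, 363, 381, 394 and 418 CPM. The 11 controls had 129, 134, 139, 140, 141, 143, 144, 146, 171, 171 and 175 CPM. Bifenthrin larvae formed a narrow group, copper sulfate larvae spread over nearly a doubling of the level, and 8 of the 11 controls lay together with the other 3 somewhat above them.

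The model averaged 258 ± 25.1 CPM in bifenthrin larvae (SD, n = 10) and 149 ± 16.1 CPM in controls (SD, n = 11). The fitted log2 fold change was 0.79 ± 0.09 (SE, edgeR), a 1.73-fold higher level. The lowest bifenthrin larva, replicate 7, had 1.21 times the level of the highest control, so the ranges did not overlap. Over all 21174 tested models, 3.1% had bifenthrin larvae entirely above controls. A larger log2 fold change than that of cytochrome c was found for 964 models, or 4.55% of those tested, and the median over all tested models was -0.01. The same controls entered the copper sulfate contrast by which the model was selected, so these ranks are not free of the selection.

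With copper sulfate the model averaged 322 ± 60.9 CPM (SD, n = 11), against 149 ± 16.1 CPM in controls (SD, n = 11). The fitted log2 fold change was 1.11 ± 0.09 (SE, edgeR), a 2.16-fold higher level. The lowest copper sulfate larva, replicate 1, had 1.31 times the level of the highest control. Over all tested models, 0.198% had copper sulfate larvae entirely above controls, and 94 models, or 0.444%, had a larger log2 fold change. This is the contrast by which the model was selected, so these ranks describe the selection.

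**Figure D2:**
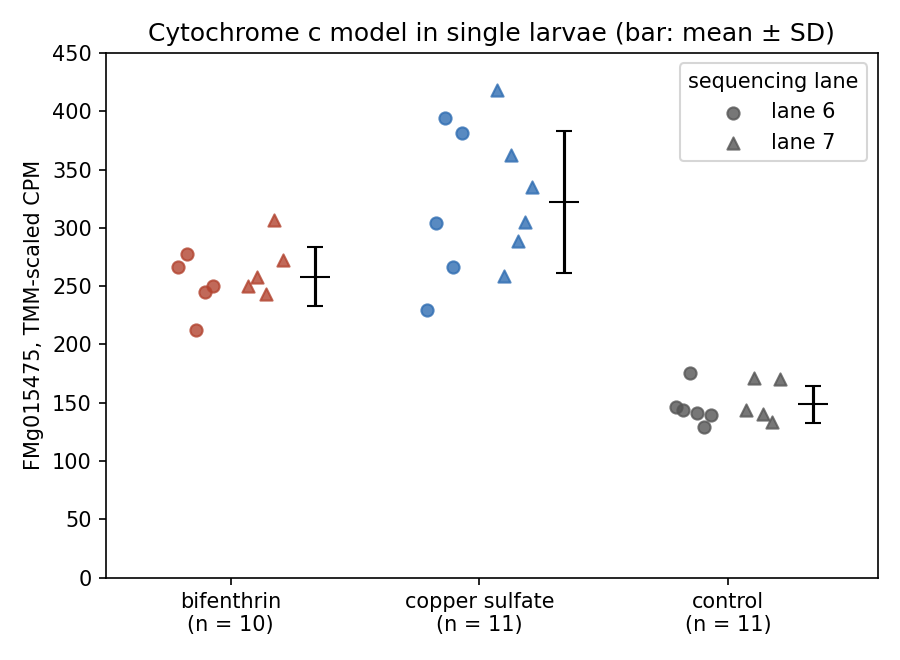
TMM-scaled CPM of FMg015475 (y axis, from 0) in single larvae of the bifenthrin, copper sulfate and control groups, 1 symbol per larva, with circles for sequencing lane 6 and triangles for lane 7. The bar beside each group is the mean ± SD, at 258 ± 25.1, 322 ± 60.9 and 149 ± 16.1 CPM, and no treated larva lies within the range of controls in either lane.

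Both comparisons used the same 11 controls, so they are not independent of each other. The cytochrome c model was 1 of 14 models, 0.0661% of those tested, for which all 21 treated larvae lay above all 11 controls. Among the 425 models called higher with both chemicals, 2.01% of those tested, 164 had a larger log2 fold change with bifenthrin and 38 with copper sulfate, and 32 had a larger one with both. The model was selected on its copper sulfate contrast, which enters each of these counts. They therefore describe the selection in part, and a joint response was not tested. In whole larvae, more cells of a type that is rich in the transcript and more transcript per cell cannot be told apart.

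Set side by side, the chemicals overlapped. Bifenthrin larvae averaged 258 ± 25.1 CPM (SD, n = 10) and copper sulfate larvae 322 ± 60.9 CPM (SD, n = 11), with a fitted log2 difference of -0.32 ± 0.09 (SE, edgeR) for bifenthrin minus copper sulfate. In single larvae, 1 of 10 bifenthrin larvae lay below every copper sulfate larva, and 5 of 11 copper sulfate larvae lay above every bifenthrin larva. Only bifenthrin replicate 11, at 307 CPM, exceeded the copper sulfate median of 305 CPM. The other copper sulfate larvae lay within the range of the bifenthrin group. Each chemical was given at 1 concentration, so these levels do not compare their potency. A more negative log2 difference was found for 3682 models, or 17.4% of those tested. The model was selected for its rise with copper sulfate, which favours a high copper sulfate mean. The difference between the chemicals therefore describes the selection in part.

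The spread between larvae of a group is given as a description, with no test. The coefficient of variation of CPM was 9.7% in bifenthrin larvae, 18.9% under copper sulfate and 10.8% in controls. Counting error alone, at the mean counts of each group, would give 1.7% with bifenthrin, 1.5% with copper sulfate and 2.14% in controls, a limit that covers counting error only. The spread between larvae, which are separate animals, was 5.7 times the counting error with bifenthrin, 12.6 times with copper sulfate and 5.05 times in controls. Among 899 other models with a mean count within a factor of 2 of cytochrome c, the median coefficient of variation was 12.1% in bifenthrin larvae, 15.1% under copper sulfate and 14.6% in controls. Of these models, 32.3% varied less than cytochrome c in bifenthrin larvae, 67.6% under copper sulfate and 23.4% in controls. A small p favours models of low spread, so the choice of the model bears on these values.

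Some of the spread moved with the scaling. The 3 controls at 171 CPM or more were replicates 4, 5 and 14, which were the 3 deepest control libraries and had the lowest TMM factors of the group, at 0.993, 0.97 and 0.941. Copper sulfate replicate 2 had the highest level, 418 CPM, and the lowest TMM factor of all larvae, 0.877. Over 32 larvae, after group and lane means were removed, log2 CPM of cytochrome c correlated with the log2 TMM factor with r = -0.50, a description in which the factor itself enters the CPM. With the log2 total the correlation was r = 0.29, and with the share of counts in the 10 most abundant genes it was r = 0.21. These values are given without a test, and their part in the spread was not tested.

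With library totals alone in place of TMM the groups remained apart. The model then averaged 254 ± 26.6 CPM in bifenthrin larvae (SD, n = 10), 315 ± 52.8 CPM under copper sulfate (SD, n = 11) and 153 ± 10.9 CPM in controls (SD, n = 11). The lowest values were 210 CPM with bifenthrin and 232 CPM with copper sulfate, and the highest control was 174 CPM. Copper sulfate replicate 2 then stood at 366 CPM, below replicate 7 at 393 CPM. Control replicates 4, 5 and 14 stood at 174, 166 and 161 CPM, and control replicate 1 came next at 157 CPM. The gap between these controls and the others with TMM was thus not seen with library totals.

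The libraries were sequenced in lanes 6 and 7, and each lane held larvae of every group. In lane 6 the model averaged 250 ± 25 CPM in bifenthrin larvae (SD, n = 5), 315 ± 71.5 CPM in copper sulfate larvae (SD, n = 5) and 146 ± 15.6 CPM in controls (SD, n = 6). In lane 7 it averaged 266 ± 25.3 CPM in bifenthrin larvae (SD, n = 5), 328 ± 56.9 CPM in copper sulfate larvae (SD, n = 6) and 152 ± 17.9 CPM in controls (SD, n = 5). The order of the groups was the same in both lanes. Fitted within lane 6 alone, the log2 fold change against control was 0.79 ± 0.13 for bifenthrin and 1.12 ± 0.13 for copper sulfate (SE, edgeR). Within lane 7 alone it was 0.81 ± 0.13 for bifenthrin and 1.10 ± 0.13 for copper sulfate (SE, edgeR). The model was selected on these same larvae, so the lanes are not separate replications of the group differences.

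The model was not chosen on its lane terms, so these were tested. Choice by a small p does favour low spread around group and lane means, where a lane-by-treatment difference would lie. The interaction terms are therefore not independent of the choice and cannot show that no interaction exists. Lane 7 exceeded lane 6 by a log2 difference of 0.07 ± 0.07 for cytochrome c (SE; adjusted p = 0.73, edgeR). The lane-by-treatment terms were 0.03 ± 0.18 for bifenthrin (SE; adjusted p = 0.999, edgeR) and 0.00 ± 0.18 for copper sulfate (SE; adjusted p = 1, edgeR), and the joint edgeR test of both gave an adjusted p of 1. The edgeR test called 0% of the 21174 models for lane and 0% for the joint interaction. At an unadjusted p under 0.05 there were 2516 of the 21174 models for lane and 637 for the joint interaction. Without any effect a share of 0.05 would be expected, and the share for lane lay above it and that for the joint interaction below. No other tool was run for these terms.

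Models that varied together with cytochrome c were sought among the 16621 other models with a mean count of at least 50. Likeness was measured by Pearson's r of log2 CPM over all 32 larvae, which share 1 library kit and 2 sequencing lanes. The median r was -0.02, and r exceeded 0.7 for 146 models and lay below -0.7 for 1. With library totals alone in place of TMM the median r was -0.15, with 81 models above 0.7 and 11 below -0.7. These correlations follow the group means as well as the larvae, so they are descriptions of a pattern that was chosen for its group means.

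The most similar model was FMg004703 (accession E7F5B6), with r = 0.94. It ranged from 289 to 382 CPM in bifenthrin larvae, with a median of 315, and from 292 to 409 CPM in copper sulfate larvae, with a median of 385. In controls it ranged from 176 to 267 CPM, with a median of 214. All 21 treated larvae lay above the highest control in this model too, which held for 14 models, 0.0661% of those tested. It was picked for its likeness to a model with that separation, so this follows in part from the choice. The next was FMg017101 (A0A0R4IRI3), with r = 0.89, at 123 ± 18.3 CPM in bifenthrin larvae (SD, n = 10), 141 ± 22.1 CPM under copper sulfate (SD, n = 11) and 71.9 ± 16.3 CPM in controls (SD, n = 11). In FMg017101, likewise picked for its likeness, all 21 treated larvae also lay above the highest control.

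At the other end, FMg015086 (Q6DRE5) had r = -0.71 and FMg010074 (F1QYC4) had r = -0.70. FMg015086 averaged 64.2 ± 11 CPM in bifenthrin larvae (SD, n = 10), 64.8 ± 9.29 CPM under copper sulfate (SD, n = 11) and 90.3 ± 12.5 CPM in controls (SD, n = 11). FMg010074 averaged 13.6 ± 1.61 CPM in bifenthrin larvae (SD, n = 10), 14.8 ± 1.27 CPM under copper sulfate (SD, n = 11) and 18.8 ± 2.64 CPM in controls (SD, n = 11). Both models lay below the control median in all 21 treated larvae. The sources used here give none of these 4 accessions a name.

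Likeness was then measured on the deviations of each larva from its group and lane means, which leaves out the differences between groups. Here r had a median of 0.00 over the 16621 models, and 1 model exceeded 0.7. With library totals alone the highest r was 0.67, and 28 models exceeded 0.5, against 131 with TMM. With TMM, FMg001466, which has no accession in the table, had the highest value, r = 0.71. Within single groups its r with cytochrome c was 0.73 in bifenthrin larvae, 0.84 under copper sulfate and 0.43 in controls. FMg012632 (A0A0R4IGG3 and Q90XG0) followed with r = 0.69, and within groups it had 0.75 in bifenthrin larvae, 0.83 under copper sulfate and 0.28 in controls.

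These models were picked by their values in the same larvae, so their group levels are given as a description, with no test. FMg012632 averaged 639 ± 112 CPM with copper sulfate and 373 ± 37.7 CPM in controls (SD, n = 11 each), and 11 of 11 copper sulfate larvae exceeded the highest control. The fitted log2 fold change was 0.78 ± 0.09 (SE, edgeR). With bifenthrin it averaged 460 ± 53.8 CPM (SD, n = 10), with a fitted log2 fold change of 0.30 ± 0.09 (SE, edgeR) and 8 of 10 larvae above the highest control. Like cytochrome c, this model thus had its highest mean with copper sulfate and its lowest in controls. Over all tested models, 0.198% had copper sulfate larvae entirely above controls.

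FMg001466 had another order of group means. It averaged 83.6 ± 12.1 CPM with bifenthrin (SD, n = 10) and 49.7 ± 4.92 CPM in controls (SD, n = 11), with a fitted log2 fold change of 0.75 ± 0.09 (SE, edgeR) and 9 of 10 larvae above the highest control. With copper sulfate it averaged 56.2 ± 8.89 CPM (SD, n = 11). The fitted log2 fold change there was 0.17 ± 0.09 (SE, edgeR), with 8 of 11 larvae above the control median. The model with the highest r from larva to larva thus had its highest mean with bifenthrin, whereas cytochrome c had its highest mean with copper sulfate.

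**Figure D3:**
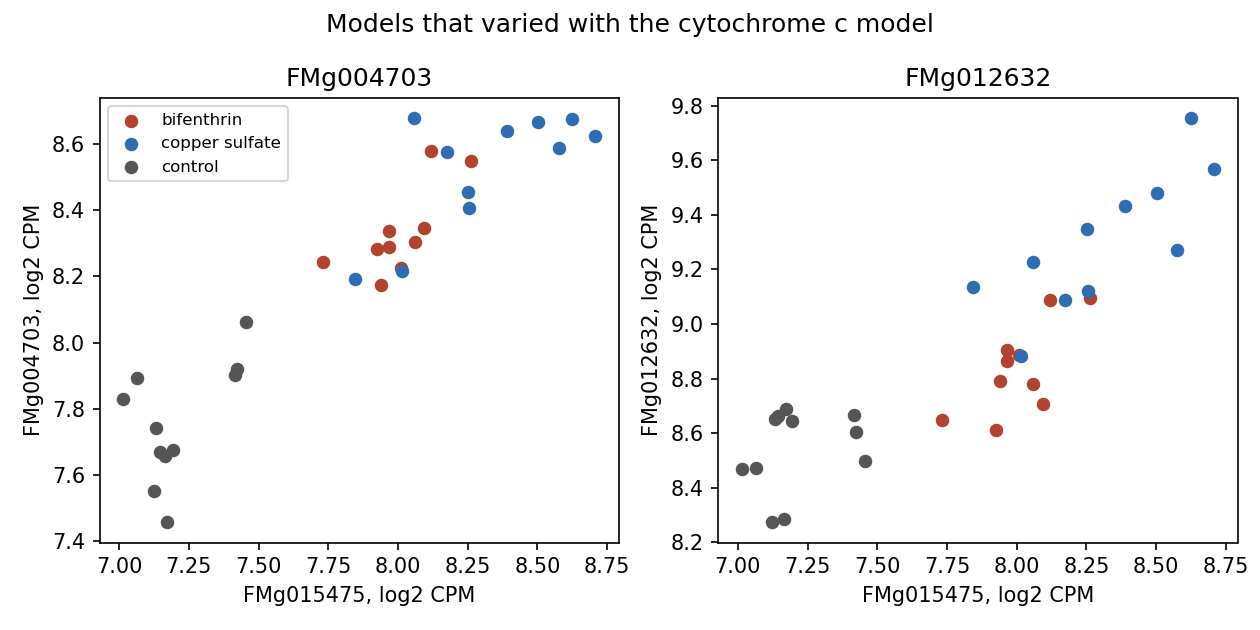
Log2 CPM of FMg004703 (left, y axis) and FMg012632 (right, y axis) against log2 CPM of the cytochrome c model FMg015475 (x axis), 1 point per larva, for the bifenthrin, copper sulfate and control groups. Over all 32 larvae r was 0.94 for FMg004703 and 0.87 for FMg012632, and within group and lane means it was 0.63 and 0.69 for the same models.

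The models that varied most opposite to cytochrome c within groups were FMg014456 (E7F1U4), with r = -0.68, and FMg017560 (Q3UR75 and A2BIE1), with r = -0.65. Their r lay between -0.73 and -0.62 in each of the 3 groups. Their fitted fold changes, again with no test, were small. For FMg014456 the log2 fold change was 0.09 ± 0.12 with bifenthrin and -0.05 ± 0.12 with copper sulfate (SE, edgeR). For FMg017560 it was -0.07 ± 0.07 with bifenthrin and -0.07 ± 0.07 with copper sulfate (SE, edgeR).

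The 100 models with the highest r within groups were described together, a list chosen on these larvae and therefore given no test. Of these, 51 were called higher and 1 lower with copper sulfate, against 4.17% higher and 2.2% lower among the 16621 models with a mean count of at least 50. Over all 21174 tested models the shares were 3.58% higher and 1.99% lower. With bifenthrin 18 were called higher and 15 lower, against 20.4% and 22.6% of the 16621 models, and over all tested models 18% and 20.2%. Their median log2 fold change was 0.01 with bifenthrin and 0.32 with copper sulfate, where the 16621 models had -0.02 and -0.01. In the direct comparison of bifenthrin with copper sulfate, 2 were called higher and 59 lower. The shares were 16.8% and 19.8% of the 16621 models, and 14.9% and 17.1% of all tested models.

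The make-up of this list changed with the measure and with the larvae used. For comparison, 4.17% of the 16621 models were called higher and 2.2% lower with copper sulfate. With bifenthrin the shares of the 16621 models were 20.4% and 22.6%. By Spearman's rho, with 54 models shared, 34 of 100 were called higher and 1 lower with copper sulfate, and 10 were called higher and 30 lower with bifenthrin. The median log2 fold change with bifenthrin was then -0.12. When likeness was measured in bifenthrin and control larvae alone, which was added once results had been seen, 4 of the 100 most similar models were called higher with copper sulfate and 1 was lower, and 7 of them were shared with the list above. In that list 2 models were called higher and 66 lower with bifenthrin. Likeness was also measured in copper sulfate larvae alone, a setting that was not planned either. In that list 28 of 100 were called higher and 2 lower with copper sulfate, and 25 were shared. With bifenthrin 29 of its models were called higher and 8 lower. The list from copper sulfate larvae alone and the list from bifenthrin and control larvae alone had 0 models in common. These lists also differ in the number of larvae behind them, whose part was not tested.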

How the data were processed

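The authors deposited 1 table of raw counts, whole numbers for each gene model in each larva. The submitters' processing notes list bcl2fastq 2.19.1, STAR and limma, whose roles are not described. Neither the genome build nor the counting tool, nor how strand and multiply matching reads were treated, is stated, so reads shared with another cytochrome c copy could not be examined. Library input was 250 ng of RNA and the kit selects mRNA, per the labels' protocols. Columns were matched to larvae by description label, and 0 were left over.

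edgeR 4.0.16 (R 4.3.3) kept 21174 models with filterByExpr. After TMM scaling, group and lane were fitted in all 32 larvae (glmQLFit, glmQLFTest, Benjamini-Hochberg over all models, threshold 0.05). SE is the absolute log2 fold change over the square root of F. Log2 CPM used a prior count of 2. The fit was tested on simulated data. Named models have the 2 highest or 2 lowest r by each measure. The enzyme class lists for pathway partners matched 0 models, 0 models carried a cytochrome c accession of another vertebrate, and 0 of 26150 model numbers matched the RefSeq gene table, so no partner, sequence or position is given. Members and lists were chosen with earlier results of these data known. Alternatives used DESeq2 1.42.0 and limma 3.58.1. No 2 of the 496 pairs of larvae agreed within sampling noise (lowest chi-square per degree of freedom 8.63).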

Additional observations from a re-analysis of the deposited data

How the results depend on the processing

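The log2 fold change of cytochrome c moved by less than the pooled SD between larvae (0.201) in all 11 other settings. It did so without each of 32 larvae too. Leaving out 1 larva of a group could hardly move its mean that far, so this limit cannot judge stability there. Over settings the log2 fold change ranged from 0.73 to 0.81 for bifenthrin and from 1.04 to 1.12 for copper sulfate. Library totals alone gave the lowest value for both. Without single larvae it ranged from 0.77 to 0.82, from 1.07 to 1.16, and from -0.35 to -0.27 between the chemicals. With a replicate block the values were 0.80, 1.09 and -0.29. Same-numbered larvae were sequenced in the same lane. With group and lane means removed, their median r was -0.05 (bifenthrin and control), -0.01 (copper sulfate and control) and -0.04 (bifenthrin and copper sulfate). In 2 of 60 checks a larva correlated best with its own number in another group. Whether same-numbered larvae shared a beaker or a day is not stated, and these values cannot show it. The block called 3555 higher and 3918 lower for bifenthrin, 537 and 190 for copper sulfate, and 2858 and 3235 between them.

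Background counts were less steady. In the main setting they were 3820 higher and 4276 lower for bifenthrin, 759 and 422 for copper sulfate, and 3147 and 3621 between them. Library totals alone gave 2889 and 5358, 582 and 1116, and 2969 and 3540. Lane 6 alone gave 2618 and 2660 for bifenthrin, 303 and 79 for copper sulfate, and 1439 and 1191 between them. Lane 7 alone gave 1880 and 2175, 77 and 10, and 1784 and 1999. Each lane held only 5 or 6 larvae per group, so the lane counts are not on a par with those from all larvae. Without single larvae, higher and lower calls ranged from 3549 to 4029 and from 3914 to 4419 for bifenthrin, from 638 to 870 and from 259 to 506 for copper sulfate, and from 2876 to 3254 and from 3288 to 3723 between them. The lower calls for copper sulfate numbered 259 when copper sulfate replicate 4 was left out and 275 when control replicate 7 was.

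Of the 100 models most like cytochrome c within groups, 51% were called higher with copper sulfate, against 4.17% of the 16621 models. The share was 34% by Spearman's rho and 53% with library totals alone. It was 28% with likeness in copper sulfate larvae alone. With likeness in bifenthrin and control larvae alone it was 4%, near the share over the 16621 models. With 50 or 200 models the shares were 60% and 41.5%. The settings with part of the larvae and with 50 or 200 models were not planned. The enzyme class lists had no members, so their alternatives were not run. The causes of these shifts were not tested.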
